A study of Bos taurus with 60 samples.

Results

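In cattle liver, bta-miR-143 was the second most abundant known miRNA in each breed, with a median of 16.6% of all miRNA counts over 60 steers, while bta-miR-145 had a median of 313 CPM (counts scaled to a library of fixed size). These 2 mature miRNAs, out of 1030 known bovine miRNAs listed, are the subject here and were chosen by name as the clustered pair often used as a sign of vessel wall and connective tissue cells. Neither differed detectably between breeds or between feed efficiency groups, and their levels correlated moderately across steers, by an amount that depended on how library size was scaled. Each miRNA occurred once in every file, with 1 precursor, so averaging over precursors left their counts as deposited.

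The genes of miR-143 and miR-145 lie next to each other and are transcribed together as one long primary RNA, from which both hairpins are cut. Smooth muscle cells of vessel walls are their best known site of expression, where the transcription factor SRF and its partner myocardin drive them, and fibroblasts and pericytes carry them as well. A mature miRNA pairs with target mRNAs mainly through its seed, bases 2 to 8 from the 5′ end, and lowers their stability and translation.

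The liver samples came from Angus, Charolais and Kinsella Composite (KC) beef steers, 20 per breed, and 1 small RNA library was made from each steer. Their finishing diet held barley as grain (75%) and as silage (20%) beside rumensin pellets (5%). The study asked how liver miRNAs relate to residual feed intake (RFI), the difference between the feed an animal eats and the feed its growth and size predict, so that a low-RFI steer is efficient. The labels give 6 low-RFI and 6 high-RFI steers in each breed, 36 in all, and leave 24 steers, 8 per breed, without an RFI group. RNA was taken, according to the study, only from steers with the highest and lowest RFI of a breed. These 24 steers thus also came from both ends of RFI, and each set of 8 mixes them. By the study's methods the 12 grouped steers of a breed were picked for extreme RFI and also for expression close to that of the other samples of the breed, so the spread within RFI groups is that of selected animals. Mean age at slaughter also differed between breeds. By the sire codes, Angus steers came from 7 sires, Charolais from 5 and KC from 11. The code of KC low-RFI 3 differs in form from the other KC codes and may stand for an unknown sire. The samples are bulk right-lobe tissue, in which more cells of a type and more RNA per cell cannot be told apart. The defining miRNA of hepatocytes, miR-122, had a median of 7855 CPM, with no other tissue in the data to compare it with.

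The mature sequences are printed here with the seed in capitals, because the seed decides which miRNAs can share targets with each member and near-identical sequences decide whether reads can be confused. The names with AB are miRNAs that the study predicted from its own reads, and they are the ones that carry either seed.

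bta-miR-143: uGAGAUGAagcacuguagcucg

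bta-miR-AB-9: aGAGAUGAagcacuggagc

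bta-miR-145: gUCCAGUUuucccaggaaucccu

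bta-miR-AB-3: gUCCAGUUuucccaggaa

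bta-miR-AB-74: gUCCAGUUuucccaggag

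bta-miR-AB-237: uUCCAGUUaauagcucuguuaa

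The members do not share a seed with each other. Of the 587 known miRNAs with a listed sequence other than the member itself, 0 carried its seed and 0 were near-identical to it, for either member. bta-miR-AB-3 equals bta-miR-145 over all of its 18 bases. bta-miR-AB-74 matches bta-miR-145 at 17 of 18 bases, with the substitution A18G (base of bta-miR-145, position from the 5′ end, base of the predicted miRNA). bta-miR-AB-9 matches bta-miR-143 at 17 of 19 bases, with U1A and U16G. bta-miR-AB-237 has the seed of bta-miR-145 but only 8 identical bases of 22. Counts of predicted miRNAs were not analysed here. In the RefSeq annotation of assembly ARS-UCD2.0, MIR143 and MIR145 are neighbours inside one long non-coding RNA gene, LOC132345768, and no gene lies between them. IL17B is the nearest gene on one side and CSNK1A1 on the other.

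Library totals ran from 1930859 to 6759381 averaged miRNA counts. At the median count, counting error alone gives a coefficient of variation (CV) of 0.116% for bta-miR-143 and 2.80% for bta-miR-145, and 4.68% at the lowest bta-miR-145 count of 456. Levels are given on 2 scales: the share of the library total, and CPM of a library size adjusted by edgeR's TMM factor, which is set by the bulk of miRNAs and therefore moves both members of a library by the same amount. In 2 libraries this factor stood apart, at 0.643 in Charolais without RFI group 7 and 0.673 in Angus without RFI group 3, against 0.821 to 1.158 in the other 58. The difference of KC from Charolais, the spread of the members and their correlation are given with and without them. So is the place of each member among the miRNAs most correlated with the other. Most other values that include these libraries, among them those on cell type lists, are given only with them.

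bta-miR-143 took 12.98% to 25.7% of all miRNA counts. In Angus the lowest, median and highest shares were 12.98%, 16.3% and 20.4% (n = 20). In Charolais they were 13.8%, 17.3% and 25.7%, and in KC 13.8%, 16.99% and 23.1% (n = 20 each). The ranges of the breeds overlapped almost completely. bta-miR-143 ranked first in 1 Angus, 1 Charolais and 3 KC steers and second in all others.

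bta-miR-145 ranked 78th by mean count in Angus, 72nd in Charolais and 75th in KC. Its lowest, median and highest levels were 170, 306 and 446 CPM of the library total in Angus, 193, 293 and 612 CPM in Charolais, and 202, 318 and 509 CPM in KC. These ranges overlapped too, and the highest steer, Charolais high-RFI 4, stood well above the rest of its breed. Across the 60 steers the CV of the share was 27.3% for bta-miR-145 and 13.9% for bta-miR-143, both far above counting error.

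**Figure D1:**
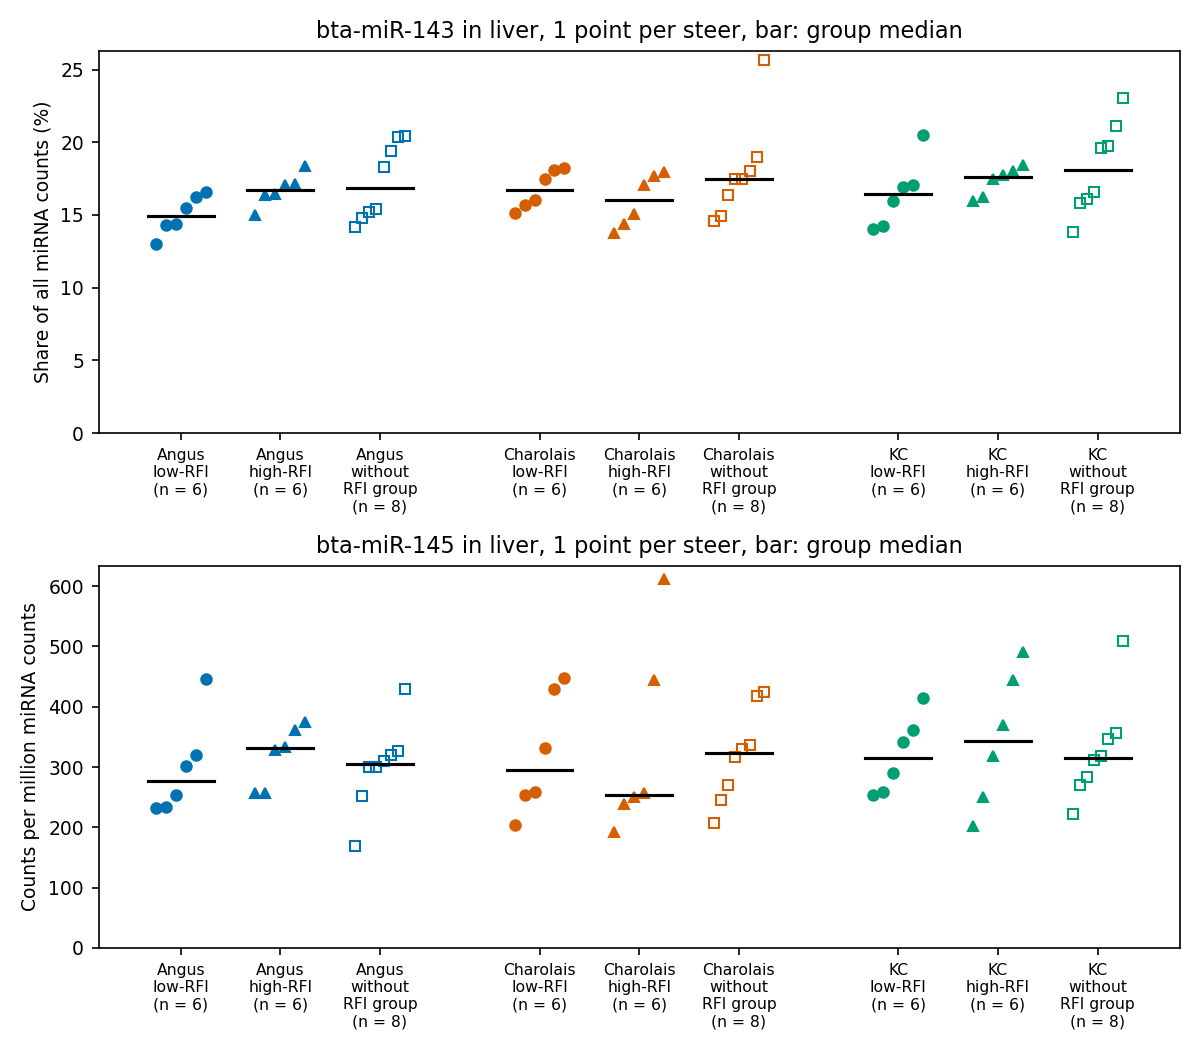
Level of each member in each of the 60 steers by breed and RFI group. The upper panel gives bta-miR-143 as percent of all miRNA counts and the lower panel bta-miR-145 as CPM, both relative to the library total, with 1 point per steer and a bar at the group median. Every group overlaps every other, with bta-miR-143 medians of 14.9% to 18.1% and bta-miR-145 medians of 253 to 344 CPM.

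By group, the median share of bta-miR-143 was lowest in Angus low-RFI steers, at 14.9%, followed by Charolais high-RFI (16.1%), KC low-RFI (16.4%), both Charolais low-RFI and Angus high-RFI (16.7%), Angus without RFI group (16.9%), Charolais without RFI group (17.5%), KC high-RFI (17.6%) and KC without RFI group (18.1%). The median of bta-miR-145 was lowest in Charolais high-RFI steers, at 253 CPM, followed by Angus low-RFI (277), Charolais low-RFI (296), Angus without RFI group (306), KC without RFI group (314), KC low-RFI (316), Charolais without RFI group (323), Angus high-RFI (331) and KC high-RFI (344). No neighbours in either order differed beyond the spread of their steers, since all 9 ranges overlapped for each member. The orders also differed between the members, with Charolais high-RFI at the bottom for bta-miR-145 and Angus low-RFI at the bottom for bta-miR-143.

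With TMM scaling, much of the spread of bta-miR-143 among Angus and Charolais steers outside the RFI groups rested on the 2 libraries that stood apart. As a share of the library total this held in Charolais but not in Angus. On the TMM scale its CV was 31.7%, 43.4% and 26.4% in the Angus, Charolais and KC steers without RFI group (n = 8 each), against 10.3% to 14.97% in the 6 RFI groups. Both libraries are among these steers, and without them the CV was 17.95% in Angus and 13.4% in Charolais (n = 7 each), the latter inside the range of the RFI groups. For the share of the library total the CV was 15.3%, 19.3% and 17.1% with them, and 14.8% in Angus and 9.61% in Charolais without, against 5.77% to 14.4% in the RFI groups. On this scale the Angus value hardly moved and stayed above that of every RFI group. For bta-miR-145 the TMM-scaled CV was 19.2% to 42.0% in the steers without RFI group, 19.1% to 33.5% without the 2 libraries, and 14.97% to 49.0% in the RFI groups. After subtracting breed means, the SD of log2 CPM was 0.30 for bta-miR-143, which put it at place 125 of 425 miRNAs from least to most variable. Without the 2 libraries it was 0.23, at place 92, and with library totals 0.19, at place 31. Within 1 log2 unit of its level there were 4 miRNAs, itself included, and bta-miR-143 was at place 4, where the median SD was 0.23, a place it also had in both other settings. The SD of bta-miR-145 was 0.42, at place 199, and 0.40 without the 2 libraries, at place 195. Among the 36 miRNAs within 1 log2 unit of its level, bta-miR-145 was at place 33, where the median SD was 0.21.

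The comparison of breeds asked whether the members differ with genetic background. Neither did by the edgeR quasi-likelihood F test. In 0 of the 3 breed pairs did either member pass an adjusted p-value of 0.05, where the share of all 425 tested miRNAs that passed was 2.35% for Charolais against Angus, 12.9% for KC against Angus and 16.7% for KC against Charolais. For bta-miR-143 the log2 fold change of Charolais relative to Angus was 0.10 ± 0.099 (SE), with an adjusted p of 0.593. That of KC relative to Angus was 0.06 ± 0.099 (adjusted p = 0.754), and that of KC relative to Charolais was -0.05 ± 0.099 (adjusted p = 0.815).

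bta-miR-145 gave log2 fold changes of 0.16 ± 0.13 (SE, adjusted p = 0.518), 0.10 ± 0.13 (adjusted p = 0.674) and -0.06 ± 0.13 (adjusted p = 0.823) for the same pairs. The F test over the 3 breeds gave adjusted p-values of 0.711 for bta-miR-143 and 0.623 for bta-miR-145, where 19.5% of miRNAs passed. The 95% confidence intervals bound the differences: for bta-miR-143 they lay between -0.24 and 0.30 on the log2 scale over the 3 pairs, and for bta-miR-145 between -0.32 and 0.42. A 1.5-fold difference lay outside all of them. These intervals take steers as independent, although several share a sire. Over 11 alternative settings, the log2 fold change of bta-miR-143 in Charolais relative to Angus ran from 0.05 to 0.23. In the main fit, unadjusted p-values were at least 0.219 for both members, while 80, 110 and 115 miRNAs had one under 0.05 in the 3 pairs. The sign of KC against Charolais was positive for both members with library totals alone and without the 2 libraries that stood apart, at 0.054 for bta-miR-143 and 0.025 for bta-miR-145 in the latter, so no order of these breeds can be given.

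**Figure D2:**
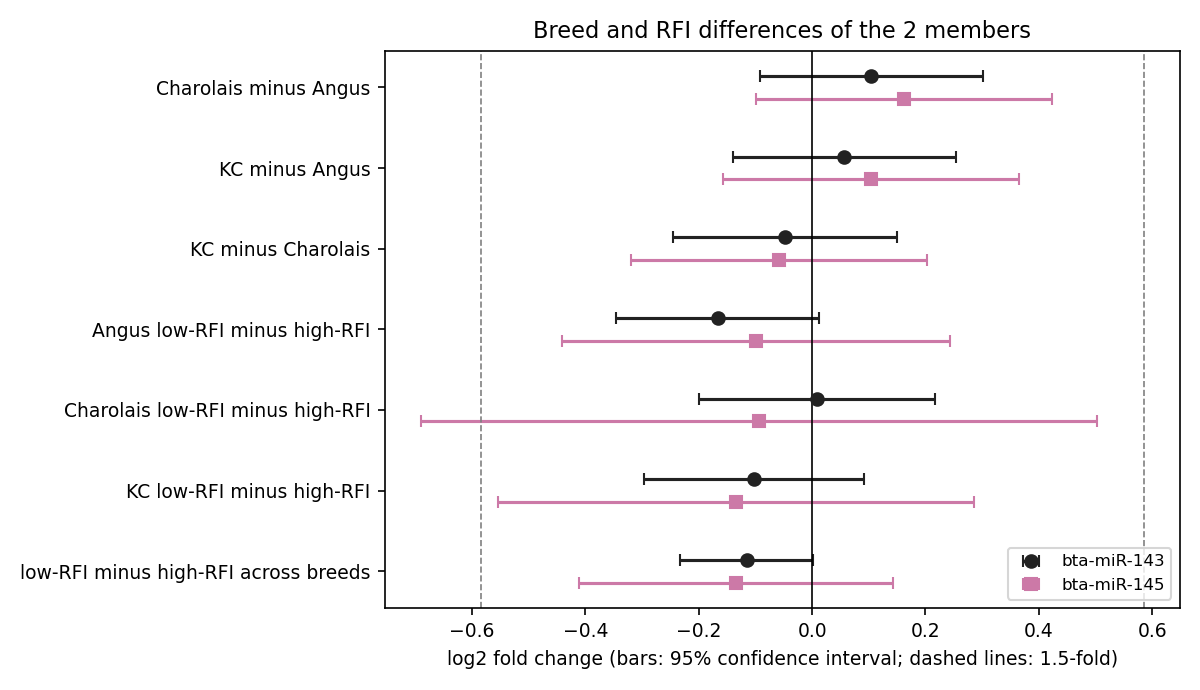
Log2 fold changes of bta-miR-143 (circles) and bta-miR-145 (squares) for breed pairs and for low-RFI against high-RFI steers, with 95% confidence intervals from edgeR. All 14 intervals include 0, and 1 of them, bta-miR-145 in Charolais RFI groups, reaches past the dashed 1.5-fold line.

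The RFI comparison asked whether efficient and inefficient steers of a breed differ. Values here are CPM with TMM over the 12 steers of the breed. In Angus, bta-miR-143 had its lowest, median and highest levels at 119954, 150655 and 168177 CPM in low-RFI steers and at 149008, 166290 and 194653 CPM in high-RFI steers (n = 6 each). The groups overlapped, and 2 of 6 low-RFI steers exceeded the median of the high-RFI group. The log2 fold change was -0.17 ± 0.085 (SE), with an adjusted p of 0.970 by edgeR's quasi-likelihood test and an exact two-sided permutation p of 0.0887, where the smallest p that 6 against 6 steers allow is 0.00216. bta-miR-145 ran from 230 to 483 CPM (median 269) in low-RFI and from 255 to 362 CPM (median 340) in high-RFI Angus steers. Here 1 of 6 low-RFI steers, Angus low-RFI 6, exceeded that median, and it also exceeded every high-RFI steer. The log2 fold change was -0.10 ± 0.16 (SE), with an exact permutation p of 0.522. Without that steer it was -0.31, with an unadjusted p of 0.0173 and an adjusted p of 0.748, so 1 animal decided the size of this difference.

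In Charolais, bta-miR-143 ran from 133690 to 183280 CPM (median 171542) in low-RFI and from 140989 to 186724 CPM (median 167533) in high-RFI steers. The log2 fold change was 0.01 ± 0.099 (SE), with an exact permutation p of 0.944. bta-miR-145 ran from 180 to 477 CPM (median 295) in low-RFI and from 190 to 626 CPM (median 261) in high-RFI steers. The log2 fold change was -0.09 ± 0.28 (SE), with an exact permutation p of 0.853, and it was 0.18 without Charolais high-RFI 4, the steer at 626 CPM. The groups overlapped for both members, and the direction for bta-miR-145 rested on that steer.

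In KC, bta-miR-143 ran from 138384 to 205271 CPM (median 159492) in low-RFI and from 151704 to 189051 CPM (median 178373) in high-RFI steers. The highest steer of all 12 was a low-RFI one, KC low-RFI 3, although the other 5 lay under the median of the high-RFI group. The log2 fold change was -0.10 ± 0.091 (SE), with an exact permutation p of 0.288. Without KC low-RFI 3 it was -0.19, with an unadjusted p of 0.0258 and an adjusted p of 0.980. bta-miR-145 ran from 252 to 415 CPM (median 305) in low-RFI and from 203 to 502 CPM (median 357) in high-RFI steers, with a log2 fold change of -0.13 ± 0.20 (SE) and an exact permutation p of 0.684.

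By the study's rule, an unadjusted p under 0.05 with a fold change above 1.5, 0 of the 2 members were called in any breed, where 2.41% of miRNAs were called in Angus, 1.88% in Charolais and 1.82% in KC. On the p-value alone 0 of the 2 passed either, beside 3.75%, 5.09% and 3.64% of miRNAs. Some steers share a sire, and with sire as a block bta-miR-145 in Charolais was called by this rule, at a log2 fold change of -1.09 (unadjusted p = 0.0425, adjusted p = 0.325), where 48 miRNAs were called in place of 7. In the same fit bta-miR-145 in Angus was at 0.19 (unadjusted p = 0.339) and bta-miR-143 in Charolais at -0.21 (unadjusted p = 0.225), both with the sign opposite to that without the block. Few steers inform this fit: sires with steers in both RFI groups numbered 2 in Angus (2 low-RFI and 3 high-RFI steers), 1 in Charolais (1 and 4) and 1 in KC (1 and 3), so the call in Charolais rested on 1 low-RFI steer. Adjusted over the 6 exact tests, p-values ran from 0.532 to 0.944. Over the 36 steers, with breed in the model, low-RFI steers had a log2 fold change of -0.12 ± 0.058 (SE) in bta-miR-143, with an adjusted p of 0.956. The unadjusted p of 0.0522 just missed 0.05, which 3.05% of 426 miRNAs passed. For bta-miR-145 it was -0.13 ± 0.14 (SE), with an adjusted p of 0.978. The confidence intervals ran from -0.23 to 0.00 and from -0.41 to 0.14. The interaction of RFI group with breed gave adjusted p-values of 0.994 for both members (unadjusted 0.439 for bta-miR-143 and 0.991 for bta-miR-145), beside 3.76% of miRNAs with an unadjusted p under 0.05, so a difference between breeds in the response was not detectable.

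The 2 members come from one primary RNA, which makes their ratio within a steer a measure that library size does not touch. Read counts of different sequences are not on a common molar scale, because adapters ligate to some miRNAs more readily than to others, so the ratio is compared between steers and not read as copies. Counts of bta-miR-143 were 564 times those of bta-miR-145 at the median, with the lowest ratio at 225 in Charolais high-RFI 4 and the highest at 1201 in Angus without RFI group 3. Breed medians were 562 in Angus, 579 in Charolais and 558 in KC. The mean log2 ratio was 9.09 ± 0.39 (SD, n = 20) in Angus, 9.10 ± 0.46 in Charolais and 9.07 ± 0.32 in KC, and these means differed by less than the spread of the steers. In permutation tests the 3 breed differences had p-values of 0.851 to 0.989. Low-RFI and high-RFI steers differed by -0.04 ± 0.17 (SE) in Angus, 0.06 ± 0.33 in Charolais and -0.01 ± 0.22 in KC on the log2 scale, with exact permutation p-values of 0.812, 0.890 and 0.948. All 6 were at 0.989 after Benjamini-Hochberg adjustment.

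Across steers the levels of the members were moderately correlated. With TMM scaling and breed means subtracted, Pearson's r was 0.44 (permutation p = 0.0005, adjusted over 4 relations 0.0020) and Spearman's rho 0.43 (permutation p = 0.00074, adjusted 0.0030) over 60 steers. Without the 2 steers farthest from the median of bta-miR-143, r was 0.41. In KC, r was 0.57 (permutation p = 0.0088) and rho 0.55 (permutation p = 0.0135), with r at 0.40 without the 2 farthest steers. Charolais gave r of 0.54 (permutation p = 0.0111) and rho of 0.47 (permutation p = 0.0362), but r was 0.16 without the 2 farthest steers, so the relation in Charolais rested on them. In Angus r was 0.12 (permutation p = 0.631) and rho 0.31 (permutation p = 0.179), and r was 0.38 without the 2 farthest steers. Adjusted over the 4 relations, p was 0.0148 for r in Charolais and in KC, and 0.0483 and 0.0269 for rho.

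This correlation depended on the scaling. The TMM factor enters both members of a library, and with breed means subtracted the TMM-scaled levels had a Spearman rho of -0.65 (bta-miR-143) and -0.38 (bta-miR-145) with the factor itself, over 60 steers. Relative to the library total alone, these values were -0.38 and -0.12, and the correlation of the members was r = 0.19 (permutation p = 0.167) and rho = 0.27 (permutation p = 0.0410). Without the 2 steers farthest from the median it was then r = 0.06. The total itself contains bta-miR-143. Relative to the total without bta-miR-143, the members had r = 0.29 (permutation p = 0.0289) and rho = 0.35 (permutation p = 0.0078). With DESeq2's size factors, r was again 0.44. Leaving out the 2 libraries that stood apart gave r = 0.41 and rho = 0.45 with TMM, and r = 0.22 (permutation p = 0.0908) and rho = 0.33 (permutation p = 0.0142) with library totals. KC kept r = 0.46 (permutation p = 0.0403) and rho = 0.53 with library totals, whereas Angus had r = -0.15 and Charolais 0.19.

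**Figure D3:**
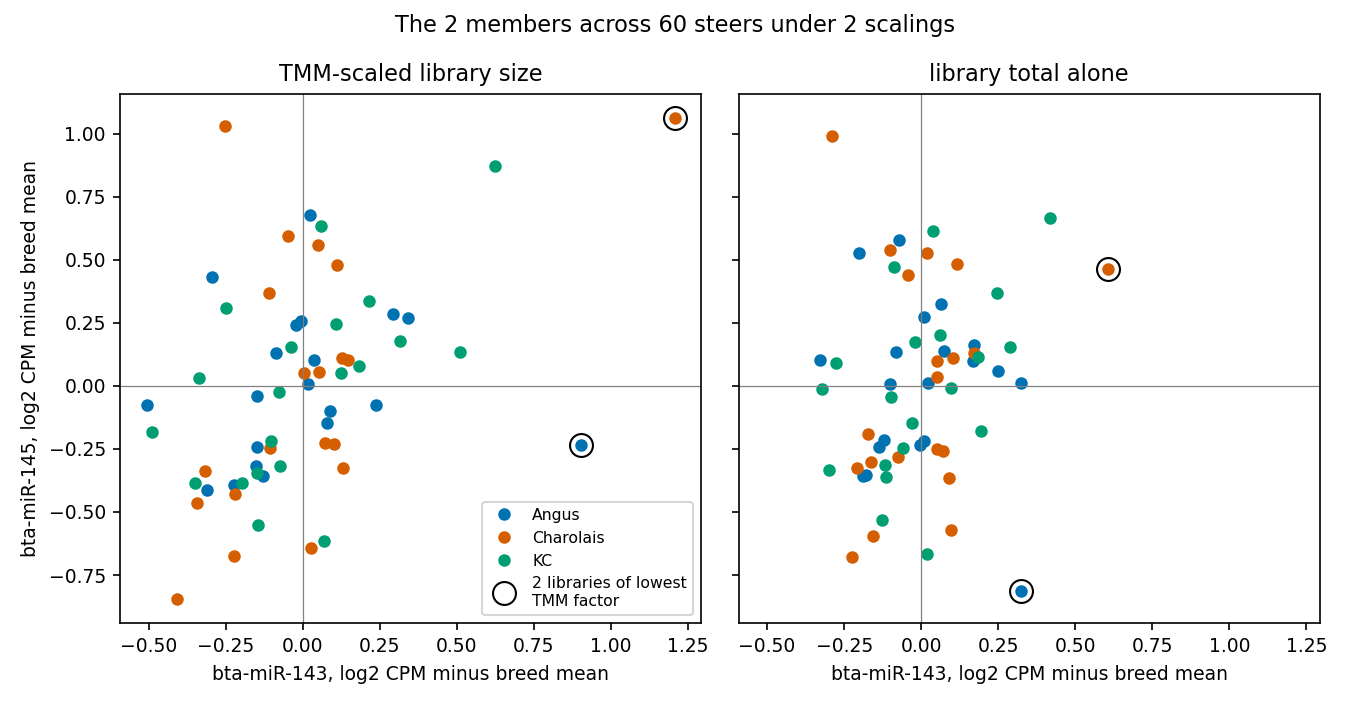
bta-miR-145 against bta-miR-143 in 60 steers, both as log2 CPM minus the breed mean, with TMM-scaled library size on the left and library totals on the right. Colours mark the breeds and rings the 2 libraries of lowest TMM factor. The cloud leans upward on the left (r = 0.44) and is flatter on the right (r = 0.19).

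The correlation was of like size within sire families. With sire means subtracted, r was 0.43 (permutation p = 0.0090) and rho 0.45 over the 49 steers that had a half-sibling in the data. Differences between sires held 29.8%, 21.8% and 48.1% of the sum of squares of bta-miR-143 in Angus, Charolais and KC, where the sires' share of degrees of freedom was 31.6%, 21.1% and 52.6%. For bta-miR-145 they held 27.7%, 13.4% and 32.6%. The labels give no sequencing pool for a library, so a shift common to a pool was not tested.

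bta-miR-145 was not the miRNA most like bta-miR-143. Likeness was taken as Spearman's rho over 60 steers with breed means subtracted, given as a description because all values share the scaling of the library. bta-miR-145 was at place 21 among the 424 other miRNAs ordered by rho with bta-miR-143, and bta-miR-143 was at place 17 for bta-miR-145. With library totals these places were 28 and 33, and without the 2 libraries that stood apart they were 15 and 13. Over all 424 others the median rho was 0.01 with bta-miR-143 and 0.00 with bta-miR-145, with quartiles of -0.14 to 0.18 and -0.14 to 0.16.

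The 5 miRNAs with the highest rho with bta-miR-143 were bta-miR-409a (0.63), from the large imprinted DLK1-DIO3 miRNA cluster, bta-miR-99b (0.61), which is clustered with let-7e and miR-125a, bta-miR-10a (0.56), which lies among the HOX genes, bta-miR-130a (0.55) and bta-miR-24-3p (0.55). bta-miR-409a and bta-miR-99b kept places 1 and 2 with library totals, at 0.61 and 0.50, but bta-miR-130a was then at 0.22 and bta-miR-24-3p at 0.31. For bta-miR-145 the highest were bta-miR-664b (0.66), bta-miR-10a (0.57), bta-miR-874 (0.53), bta-miR-342 (0.52), which lies in an intron of EVL, and bta-miR-195 (0.52), of the miR-15 family. bta-miR-664b kept place 1 with library totals, at 0.63. bta-miR-10a was the only miRNA among the 5 highest for both members, and its rho was positive in each breed, from 0.41 to 0.60 with bta-miR-143 and from 0.47 to 0.81 with bta-miR-145.

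At the other end, bta-miR-93 had the lowest rho with both members, -0.63 with bta-miR-143 and -0.76 with bta-miR-145. This miRNA belongs to the miR-17 family and is made from the miR-106b cluster in an intron of MCM7. In each breed the values were negative, from -0.49 to -0.67 for bta-miR-143 and from -0.60 to -0.88 for bta-miR-145. With library totals they were -0.69 and -0.54. bta-miR-339a (-0.58) and bta-miR-339b (-0.56) came next for bta-miR-143, and bta-miR-423-5p (-0.61) and bta-miR-6529a (-0.59) for bta-miR-145. With library totals these 4 ranged from -0.50 to -0.65.

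**Figure D4:**
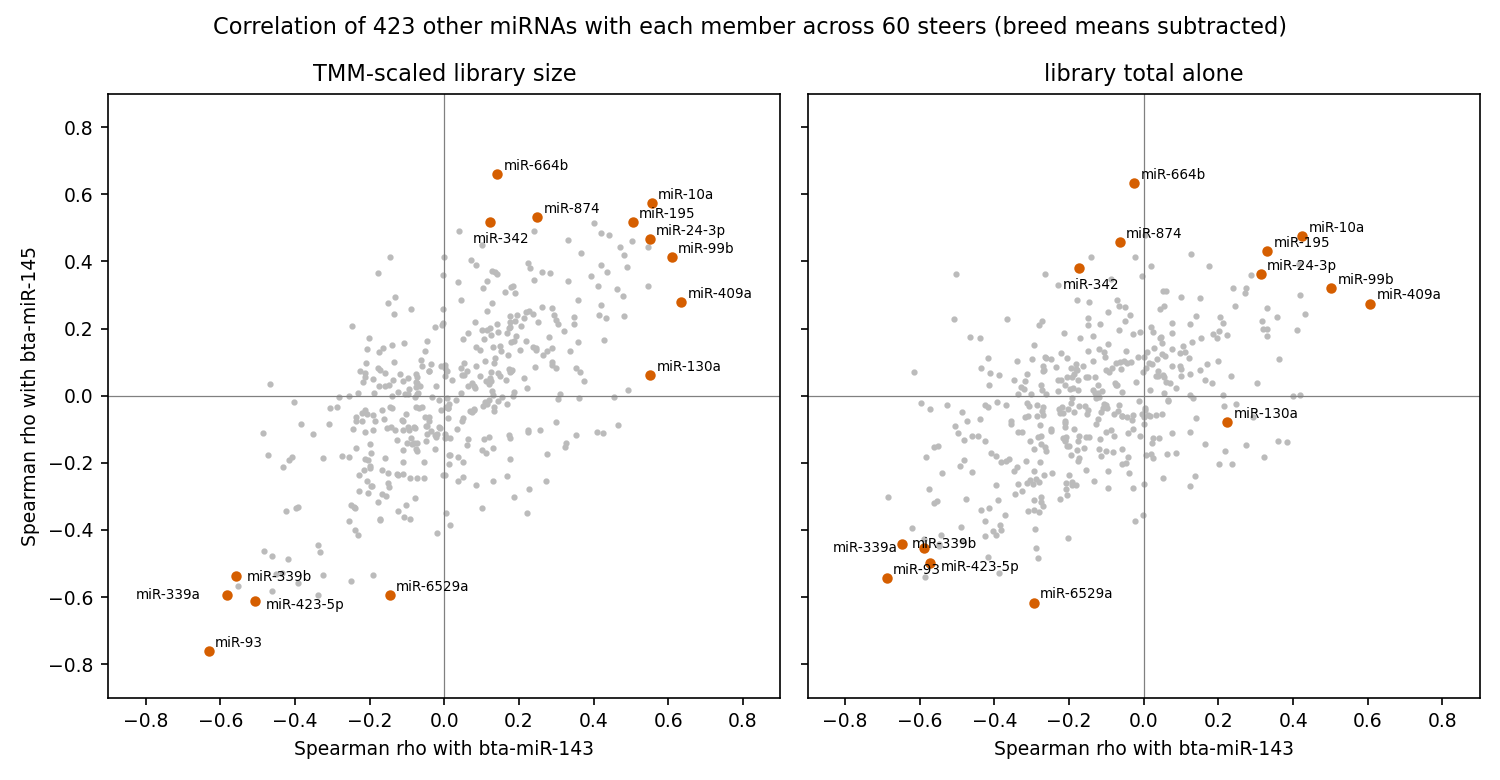
Spearman's rho of 423 other miRNAs with bta-miR-143 (horizontal) and with bta-miR-145 (vertical) over 60 steers, breed means subtracted, with TMM scaling on the left and library totals on the right. The named points are the 5 highest and 3 lowest for each member by the TMM values. bta-miR-93 lies at the lower left of both panels and bta-miR-10a at the upper right.

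Lists of miRNAs known from particular cell types were set beside the members, since the pair is used as a mark of vessels and stroma. Over all 424 others the median rho was 0.01 with bta-miR-143 and 0.00 with bta-miR-145, so about as many lay above 0 as below. Of the 5 stellate cell and fibroblast miRNAs, 4 had a rho above 0 with bta-miR-143 and 4 with bta-miR-145. The values ran from -0.08 to 0.29 (median 0.18) with bta-miR-143 and from -0.30 to 0.27 (median 0.07) with bta-miR-145. bta-miR-214, which is made with miR-199a from one antisense transcript in mesenchymal cells, had 0.26 and 0.27. bta-miR-199a-5p had 0.29 and 0.10, and bta-miR-199a-3p, the most abundant of the list, had -0.08 and -0.30. Both endothelial miRNAs had a rho below 0 with both members: bta-miR-126-3p -0.43 and -0.21, and bta-miR-126-5p -0.10 and -0.14.

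The summed level of the stellate cell and fibroblast list had a rho of 0.05 with bta-miR-143 and -0.21 with bta-miR-145, and -0.19 and -0.18 with library totals. That of the endothelial list had -0.14 and -0.17, and -0.58 and -0.28 with library totals. The hepatocyte sum had the highest rho of the 7 lists with bta-miR-143, 0.37, and 0.20 with bta-miR-145. Relative to library totals these were -0.46 and -0.23, so its sign depended on the scaling. By median level this sum is mainly bta-miR-192 (234701 CPM) and bta-miR-148a (122944 CPM). The rest of the list had a rho below 0 with bta-miR-143 under TMM. With TMM the sums of the other 4 lists, muscle, leukocyte, erythroid and biliary epithelium, ran from -0.05 to 0.15 with bta-miR-143 and from 0.06 to 0.20 with bta-miR-145. The stellate sum ran from 1380 to 2677 CPM in Angus, 1385 to 2191 CPM in Charolais and 2018 to 3426 CPM in KC. In KC, 1 of its 5 miRNAs was higher than in Angus and in Charolais, bta-miR-199c, by a log2 fold change of 5.23 and 5.17, at 715 to 1414 CPM of the library total against 18.1 to 41.6 CPM in Angus and 18.9 to 33.5 CPM in Charolais. KC files list 1207 pairs of mature miRNA and precursor and those of the other breeds 1155, and whether the listing moves the count of bta-miR-199c was not tested. The members have the same single precursor in all files. Endothelial sums were alike, from 13824 to 21162 CPM over all breeds, and 0 of the 2 endothelial miRNAs passed the test in any breed pair. Of all 425 tested miRNAs, 2.35% passed for Charolais against Angus, 12.9% for KC against Angus and 16.7% for KC against Charolais. Counts in lists this short are therefore not read as results.

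The muscle list was near its detection limit, and no list was made for the smooth muscle cells of vessel walls. bta-miR-1 had a median of 8 counts, bta-miR-133b of 4 and bta-miR-206 of 0, so bta-miR-206 was not tested and only bta-miR-133a, with a median of 154 counts, could inform. Its rho was 0.00 with bta-miR-143 and 0.06 with bta-miR-145. For hepatocytes, 2 of 5 miRNAs had a rho above 0 with bta-miR-143 and 3 of 5 with bta-miR-145, over -0.19 to 0.29 and -0.10 to 0.14. bta-miR-192, the most abundant miRNA of the libraries, had 0.29 and 0.14, and bta-miR-122 -0.10 and 0.01. The leukocyte list was split. bta-miR-146b had 0.48 with bta-miR-143 and 0.42 with bta-miR-145, at places 13 and 19 of 424, while the lymphocyte miRNA bta-miR-150 had -0.49 and -0.11. In all, 2 of 7 leukocyte miRNAs were above 0 with bta-miR-143 and 4 of 7 with bta-miR-145. Of the 3 erythroid miRNAs, 1 and 3 were above 0, the highest being bta-miR-451 with bta-miR-145 at 0.36. Of the 5 biliary epithelium miRNAs, 1 and 3 were above 0, over -0.26 to 0.20.

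With library totals, counts above 0 for bta-miR-143 were 3 of 5 stellate, 0 of 2 endothelial, 0 of 3 muscle, 0 of 5 hepatocyte, 2 of 7 leukocyte, 0 of 3 erythroid and 0 of 5 biliary miRNAs. For bta-miR-145 they were 4 of 5, 0 of 2, 2 of 3, 0 of 5, 4 of 7, 2 of 3 and 4 of 5 in the same order. Over all 424 others the median rho was then -0.14 with bta-miR-143 (quartiles -0.29 and 0.03) and -0.03 with bta-miR-145 (quartiles -0.16 and 0.11). A high share of bta-miR-143 lowers the share left for every other miRNA on that scale. The part of any cell type in the levels of the members was not tested.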

How the data were processed

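Small RNA counts of 60 livers were analysed, with breed and RFI group taken from the labels. The authors clipped adapters (cutadapt 1.16), kept reads of 15 to 28 bases, removed other small RNAs, mapped to UMD3.1 (Bowtie 1.1.1) and counted with miRDeep2 against miRBase release 22. They deposited raw read counts per mature miRNA and precursor, without normalization. Here counts were averaged over precursors and rounded. Breeds and RFI groups were compared in edgeR 4.0.16 under R 4.3.3 (quasi-likelihood F test, TMM), keeping miRNAs that reached 1 CPM in 10 of 60 or 6 of 12 steers, with Benjamini-Hochberg adjustment over all tested miRNAs. Procedures were checked on simulated data. DESeq2 1.42.0 served as an alternative. Permutation tests were exact for RFI groups and otherwise used 100000 resamples, two-sided, on log2 CPM (prior count 0.5) (numpy 2.4.6, scipy 1.17.1). Named beside the members are the 5 miRNAs with the highest and the 3 with the lowest Spearman correlation with each, and the listed cell type markers. The members and lists were chosen with earlier results of these data known. Library totals of 1930859 to 6759381 counts set the precision, and intervals cover counting error only where counting error is named. Steers are separate animals, but several share a sire. The title numbers of steers do not pair samples between breeds: over 60 pairs of same-numbered steers, deviations from breed means had correlations from -0.22 to 0.28, with 10 over 0.1.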

Additional observations from a re-analysis of the deposited data

Results flagged for a closer look

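Each member and their log2 ratio were examined in the 9 groups, 27 sets of 6 or 8 steers, for a steer far from its group. The gap of 1 steer to its nearest neighbour, relative to the group's range, was beyond Dixon's 95% limit. This was the log2 CPM of bta-miR-143 in Charolais without RFI group 7, at 18.61 with TMM scaling, against 17.06 to 17.54 in the other 7 steers of its group. Chance alone passes the limit in about 1 of 20 such sets. This library has the lowest TMM factor (0.643), and its bta-miR-143 share of the library total, 25.7%, was the highest of the 60 steers. Its bta-miR-145 level was also the highest with TMM scaling, at 661 CPM, but 425 CPM relative to the library total. Its ratio of the members, 604, was close to the median. The part of scaling in this value was not tested beyond these figures.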

How the results depend on the processing

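Neither member passed the breed threshold under any of the 11 alternatives, with adjusted p-values of 0.323 or more. KC relative to Charolais changed sign for bta-miR-143 with library totals alone (0.035), a library size without the members and bta-miR-192 (0.037), the 36 grouped steers (0.022) and without the 2 libraries of lowest TMM factor (0.054), and for bta-miR-145 with the first, second and last of these (0.032, 0.030 and 0.025). Leaving out those libraries was chosen after seeing the data. Same-numbered steers were not found to be paired, and the title number as a replicate block gave log2 fold changes from -0.028 to 0.11 and changed no call.

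When sire was a block, low-RFI relative to high-RFI turned to 0.19 for bta-miR-145 in Angus and to -0.21 for bta-miR-143 in Charolais, and bta-miR-145 in Charolais was called at -1.09 (unadjusted p = 0.0425, adjusted p = 0.325). In 1 fit of 36 steers, bta-miR-143 in Charolais was at -0.015. Leaving out each steer gave, for bta-miR-143 and bta-miR-145, -0.23 to -0.12 and -0.31 to -0.031 in Angus, -0.033 to 0.10 and -0.25 to 0.18 in Charolais, and -0.19 to -0.071 and -0.28 to -0.0031 in KC. The unadjusted p of bta-miR-143 in Angus passed 0.05 with library totals (0.0322), without the filter (0.0270), with DESeq2 (0.0397) and without Angus low-RFI 6 (0.0235) or Angus high-RFI 4 (0.0372), never with a 1.5-fold change. Across breeds it was -0.054 with library totals. The causes of these changes were not tested. The ratio kept its direction and stayed uncalled in all of its alternatives.

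For the correlation, the pooled r was 0.19 with library totals and 0.22 with totals and without the 2 libraries, both uncalled, and the pooled rho stayed called. In Angus r turned to -0.15 with totals and -0.046 relative to the total without bta-miR-143. There rho passed only on the unadjusted permutation p in the 12 grouped steers (0.64, p = 0.0296). In Charolais, r and rho lost their call with totals (0.19, 0.20), the grouped steers (0.28, 0.22), the total without bta-miR-143 (0.29, 0.26), without the 2 farthest steers (0.16, 0.28), without the 2 libraries (0.31, 0.38) and with totals and without them (0.024, 0.15), and rho with DESeq2 size factors (0.42). In KC they lost it in the grouped steers (0.31, 0.41) and without the 2 farthest (0.40, 0.46).

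Counts of all called miRNAs, the background given for the members, moved by over 1.5 times in places. Charolais against Angus had 10, but 4 with totals, 6 without the members and bta-miR-192 in the library size, 3 in the grouped steers and 0 with counts summed per sire. KC against Angus had 55, but 25 in the grouped steers and 26 per sire, KC against Charolais 71 but 22 per sire, and any breed 83 but 50 and 30. RFI calls, 9 in Angus, 7 in Charolais and 7 in KC, were 20, 17 and 15 without the filter, and 48 in Charolais and 14 in KC with the sire block. Leaving out 1 steer gave 5 in Angus without low-RFI 3, and in KC 3 without low-RFI 5 or high-RFI 4, 11 without low-RFI 2 or low-RFI 4, and 13 without high-RFI 6. Across breeds 3 were called, and 21 without the filter. Unadjusted p-values under 0.05, held by 14 miRNAs in Angus, 19 in Charolais and 14 in KC, were held by 24 in Angus and 52 in Charolais with the sire block, 29 in Angus and 23 in KC without the filter, 9 without Angus low-RFI 5 and 6 without KC low-RFI 5. Across breeds 13 had one, but 21 with totals and 30 without the filter, and in the interaction 16, but 27 without the filter. Between breeds 80 (Charolais against Angus), 110 (KC against Angus) and 136 (any breed) had one, but 40 and 84 per sire for the first and last and 68 in the grouped steers for the second. Depth limits bta-miR-145 to a counting CV of 4.68% at its lowest.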
